A study of Mus musculus with 16 samples.

Results

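The genes described here are the mouse liver's main sensors of foreign chemicals, the transcription factors that hold hepatocyte identity, and the reductase that drives cytochrome P450 enzymes. They are 9 genes chosen by name: Nr1i2, Nr1i3, Ahr, Arnt, Rxra, Hnf4a, Cebpa, Nr5a2 and Por. All 9 were found among the 33730 genes of the count table, and all 9 passed the filter on low counts that left 16206 genes for testing. RNA-seq covered 16 libraries of liver from C57BL/6 mice, 4 in each of 4 groups, and the series' design text gives 4 animals per group. WT DMSO mice, with intact Nrf2, received the solvent DMSO at 1 µL/g. WT CDDO-Me mice received CDDO-Me, a synthetic triterpenoid known to activate the transcription factor NRF2, at 3 mg/kg into the abdominal cavity, 24 h and 1 h before part of the liver was removed. KO untreated mice were Nrf2-/- and are labelled untreated, and KO CDDO-Me mice were Nrf2-/- and received the same doses of CDDO-Me. Every library is from the day 0 liver, the tissue removed at the operation. Sex and age are not given in the labels used here, nor is the part of Nrf2 that was deleted. Because the KO controls carry no vehicle label, vehicle and genotype change together in KO untreated vs WT DMSO, drug and vehicle cannot be told apart in KO CDDO-Me vs KO untreated, and vehicle enters the interaction through the WT controls alone.

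Nr1i2 encodes the pregnane X receptor (PXR) and Nr1i3 the constitutive androstane receptor (CAR), nuclear receptors that respond to drugs and bile acids by switching on cytochrome P450, conjugation and transporter genes. Both bind DNA as dimers with RXRA. Ahr encodes the aryl hydrocarbon receptor, which waits in the cytosol with HSP90 chaperones, moves to the nucleus on binding a planar aromatic ligand, and pairs with ARNT to switch on Cyp1 genes. HNF4A and CEBPA maintain the expression of plasma protein and metabolic genes in hepatocytes, and NR5A2 (LRH-1) acts on bile acid, steroid and amino acid genes. POR passes electrons from NADPH to the microsomal cytochrome P450 enzymes, so the enzymes that these receptors switch on depend on it.

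RefSeq promoter windows of 250 bases before the transcription start (GRCm38.p6) were matched for 8 of the 9 genes, in 11 windows, because some genes have more than 1 start. Ahr was not matched. Promoters of 2 genes are shown: Nr1i3, the gene with the largest difference between genotypes, and Arnt, the one member whose window holds the core letters of the antioxidant response element through which NRF2 acts. The Nr1i3 window is chr1:171213720-171213969 on the forward strand and the Arnt window is chr3:95434140-95434389 on the forward strand, both printed 5′ to 3′ with any motif match in capitals.
Nr1i3: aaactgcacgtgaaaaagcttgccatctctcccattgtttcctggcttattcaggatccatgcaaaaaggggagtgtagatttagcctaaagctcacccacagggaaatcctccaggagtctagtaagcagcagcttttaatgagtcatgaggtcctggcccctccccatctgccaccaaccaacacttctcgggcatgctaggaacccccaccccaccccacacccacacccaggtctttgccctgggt
Arnt: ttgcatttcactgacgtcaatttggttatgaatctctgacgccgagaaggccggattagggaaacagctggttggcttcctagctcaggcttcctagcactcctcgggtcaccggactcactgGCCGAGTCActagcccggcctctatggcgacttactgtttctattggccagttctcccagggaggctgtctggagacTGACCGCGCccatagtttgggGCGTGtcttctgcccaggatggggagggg
The motifs searched, on both strands and with no match overlapping another, were the antioxidant response element core TGACNNNGC, the xenobiotic response element core GCGTG that AHR with ARNT binds, and the nuclear receptor half-site AGGTCA. The capitals in the Arnt window mark TGACNNNGC on the other strand at 127 to 119 bases before the start, TGACNNNGC as printed at 50 to 42 bases, and GCGTG as printed at 29 to 25 bases. The Nr1i3 window holds none of the 3 motifs. TGACNNNGC was found in 1 of the 11 windows of these genes and in 10.2% of all 32851 windows. GCGTG was found in 3 of the 11 windows, in Arnt, Nr5a2 and Por, against 28.2% of all windows. AGGTCA was found in 2 of the 11, in Rxra and Nr5a2, against 14% of all. A match describes letters in the window and nothing about binding.

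Library totals ran from 12002317 to 99284626 counts, the largest in WT CDDO-Me 1, and 20453 to 27594 genes were detected. The 7 hepatocyte markers, none of them at 0, summed to 24574 to 49952 FPKM (counts scaled for both gene length and sequencing depth). The ranges of this sum overlapped between the genotypes without drug, and with it the 25335 to 30033 FPKM of WT CDDO-Me lay below the 30154 to 40076 of KO CDDO-Me. The markers were mixed in KO against WT under the drug, with 4 positive, 3 negative and a median log2 fold change of 0.03. Of these 7, 0 were called higher and 1 was called lower by edgeR. In these bulk samples, fewer cells of a type and less RNA per cell cannot be told apart. Libraries WT DMSO 1 and 2 and KO untreated 1 and 2 had 0.673% to 0.967% of counts on intronic and unconfirmed gene models, against 0.186% to 0.407% elsewhere. They are called intron-rich here, though unspliced reads of other genes were not counted. WT DMSO 4 stood apart: its 10 interferon-stimulated genes summed to 427 FPKM, its 6 neutrophil markers to 43.2 and its 10 acute phase genes to 20046. The same sums in WT DMSO 1 to 3 were 23.8 to 32.5, 1.77 to 2.17 and 7264 to 11822. Kupffer cell markers summed to 55.7 to 114 FPKM in WT DMSO and 128 to 229 in WT CDDO-Me, and 4 of 7 were called higher with the drug. Leaving out 1 library kept Cd5l called in 16 of 16 fits, Marco in 15, Clec4f in 4 and Adgre1 in 3. The Kupffer sum was also wholly above WT DMSO in KO untreated, at 124.8 to 154.5 FPKM, where 7 of 7 fold changes were positive and Adgre1 was called (1.13, adjusted p 0.00749). Stellate cell markers summed to 22.3 to 34.0 FPKM in KO CDDO-Me, wholly below the 38.1 to 55.0 of WT CDDO-Me. Their fold changes there were negative for 6 of 6, with 0 called by edgeR, 3 at an unadjusted p under 0.05, 0 by DESeq2 and 1 by limma. The 9 nuclear-retained RNAs summed to 1134 to 2928 FPKM in KO CDDO-Me, below all other libraries (3822 to 9770), and WT CDDO-Me had 5504 to 9770. Of these RNAs Gm26917 was called lower in KO under the drug (-2.11, adjusted p 0.0214), in 11 of 16 fits that left out 1 library, with up to 0.0593. In that comparison 7 of the 9 fold changes were negative and 2 positive, with a median of -0.24 and no other call. The ranges of Malat1 and Neat1 overlapped there, so the sum does not stand for each RNA of the list. No marker of the 8 cell type lists was at 0 in every library. Nfe2l2, which encodes NRF2, had 15.8 to 21.0 CPM (counts scaled to library size) in KO CDDO-Me and 19.9 to 51.7 in KO untreated. Its WT ranges were 42.8 to 74.9 CPM with DMSO and 36.6 to 45.5 with CDDO-Me. KO untreated 1, at 51.7 CPM, lay inside the WT DMSO range. The marker values stand beside the results here, and their part in those results was not tested.

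Per length, Hnf4a was the most abundant of the 9 genes and Arnt the least. The mean over 16 libraries was 162 FPKM for Hnf4a, 86.4 for Rxra, 76.2 for Por, 60.3 for Cebpa, 32.6 for Nr1i2, 22.9 for Nr1i3, 14.6 for Nr5a2, 14.4 for Ahr and 7.25 for Arnt. Hnf4a exceeded Rxra in 16 of 16 libraries and their ranges did not overlap. All other neighbours in this order overlapped, and Nr1i3 exceeded Nr5a2 in only 8 of 16 libraries. The spread of CPM over all libraries was widest for Nr1i3, with a coefficient of variation of 92.9% and a 33.3-fold ratio of highest to lowest. Por came next at 40.2% and 8.18-fold, and Rxra (15.7%) and Arnt (17.5%) had the lowest coefficients of variation.

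**Figure D1:**
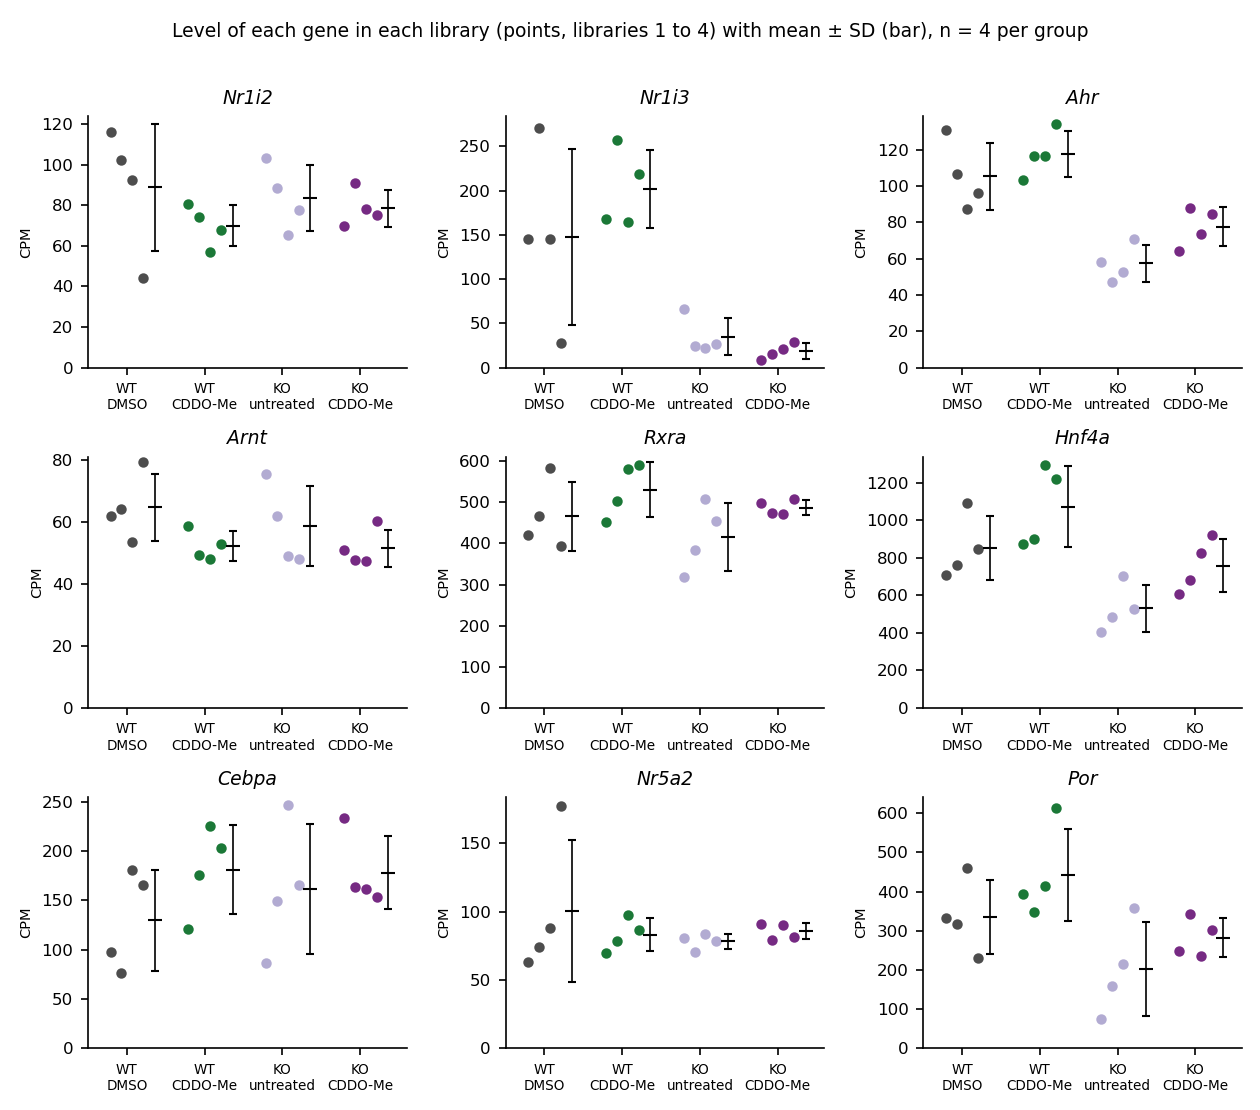
Level of each of the 9 genes in CPM (linear axis from 0) in each library of the 4 groups, with points for libraries and bars for mean ± SD (n = 4 per group). Nr1i3 lies at 8.13 to 66.4 CPM in the 8 KO libraries and at 145 to 271 CPM in 7 of the 8 WT libraries, WT DMSO 4 being the exception at 27.6 CPM.

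Of the 9 genes, Nr1i3 (CAR) and Ahr were lower in Nrf2-/- liver, each passing the test in 1 of the 2 genotype comparisons, and CDDO-Me changed none of them past the test in either genotype. Genotype went largely with the nuclear ribosomal RNA share of the libraries (below), so the parts of the 2 cannot be told apart. The test was edgeR's quasi-likelihood test on counts with Benjamini-Hochberg adjustment over 16206 genes, and a gene is said to be called when its adjusted p was under 0.05. In KO untreated vs WT DMSO, 1 of the 9 was called, Ahr lower, where 1.38% of all genes were called. In KO CDDO-Me vs WT CDDO-Me, 1 of the 9 was called, Nr1i3 lower, where 3.30% of all genes were called. In WT CDDO-Me vs WT DMSO 0 of 9 were called against 0.728% of all genes, with 0 at an unadjusted p under 0.05 and 0 called by DESeq2 or limma. In KO CDDO-Me vs KO untreated 0 of 9 were called against 0.130% of all genes, with 2 at an unadjusted p under 0.05 (Ahr and Hnf4a) and 0 by DESeq2 or limma. The interaction, the response to the drug in WT minus that in KO, called 0 of 9 against 0.130% of all genes, with 0 at an unadjusted p under 0.05 and 0 by DESeq2 or limma. Fold changes were negative for 8 of 9 genes in KO untreated vs WT DMSO, Cebpa being the exception, with a median log2 fold change of -0.36 against 0.00 over all genes. Under the drug 7 of 9 were negative with a median of -0.12 against -0.01 over all genes. The 4 pairwise comparisons share groups with each other, so their directions are not independent.

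Nr1i3 (chr1:171213970-171220701, forward strand, GRCm38), the CAR receptor, was 10.9-fold lower in KO than in WT liver under CDDO-Me, the largest difference of any member. Nr1i3 was at 145, 271, 145 and 27.6 CPM in libraries 1 to 4 of WT DMSO. It was at 168, 258, 165 and 218 CPM in WT CDDO-Me. It was at 66.4, 24.7, 21.8 and 27.1 CPM in KO untreated and at 8.13, 15.6, 21.2 and 28.9 CPM in KO CDDO-Me. All 4 KO CDDO-Me libraries lay below all 4 WT CDDO-Me libraries, while WT DMSO 4 fell inside the KO untreated range. The means were 147 ± 99.3 CPM in WT DMSO, 202 ± 44.4 in WT CDDO-Me, 35.0 ± 21.0 in KO untreated and 18.5 ± 8.79 in KO CDDO-Me (SD, n = 4 each). Under the drug the log2 fold change in KO against WT was -3.45 ± 0.57 (SE) with an edgeR adjusted p of 0.00205. It was called under all 27 alternative settings tried for this comparison, with the log2 fold change between -3.75 and -3.11.

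Without the drug the fitted log2 fold change of Nr1i3 in KO against WT was -2.07 ± 0.53, 4.21-fold lower, and it missed the threshold with an adjusted p of 0.0716. Leaving out either of 2 libraries brought it past the threshold: without WT DMSO 4 it was -2.42 with an adjusted p of 0.0103, and without KO untreated 1 it was -2.59 with 0.0405. These were the only calls in the 16 fits that left out 1 library. Without WT DMSO 2 it was -1.59 (adjusted p 0.166), and the highest adjusted p was 0.188, without KO untreated 2. The drug responses of Nr1i3 pointed in opposite directions and neither was called, at 0.46 ± 0.51 in WT (adjusted p 0.654) and -0.92 ± 0.52 in KO (adjusted p 0.37). The difference between these responses was 1.38 ± 0.73 with an adjusted p of 0.661. The share of counts on nuclear-encoded ribosomal RNA also separated the libraries. The 8 KO libraries, WT CDDO-Me 1 and WT DMSO 4 had 0.00108% to 0.0368%, and the remaining 6 WT libraries had 0.173% to 0.634%. In the submitters' numbering, every library of the low range comes after every library of the high range. What these numbers stand for is not given. Genotype went largely with this split, and the parts of the 2 in the genotype differences cannot be told apart. The low range thus holds a single library from either WT group, and Nr1i3 was there at 27.6 CPM in WT DMSO 4 and 168 CPM in WT CDDO-Me 1, against 8.13 to 66.4 CPM in the KO libraries. A fit of these 10 libraries alone, chosen after the data were seen, assumes that each lone WT library varies like the KO groups. It gave Nr1i3 a KO against WT difference of -3.18 under the drug (adjusted p 0.0396) and of 0.30 without it (adjusted p 0.83).

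The Nr1i3 locus held a second difference in the opposite direction. Tomm40l, which encodes a relative of a mitochondrial import channel protein, lies on the reverse strand at chr1:171216011-171222514 and overlaps Nr1i3 by 4691 bases. It was singled out after its values were seen. Tomm40l was at 9.41, 7.98, 9.30 and 9 CPM in libraries 1 to 4 of WT DMSO and at 7.43, 5.14, 5.61 and 6.70 CPM in WT CDDO-Me. It was at 17.0, 17.4, 19.2 and 19.1 CPM in KO untreated and at 23.5, 24.9, 24.1 and 21.7 CPM in KO CDDO-Me. All 8 KO libraries lay above all 8 WT libraries, WT DMSO 4 included. The log2 fold change of Tomm40l was 1.03 ± 0.13 in KO untreated vs WT DMSO (edgeR adjusted p 0.000752) and 1.91 ± 0.14 under the drug (adjusted p 1.58e-07). The strand setting of the counting is not given in the sources used here, so it is not known how reads from the shared stretch were counted, if at all.

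Of 52 tested genes within 1 Mb of Nr1i3, 3 were called in each genotype comparison. Under the drug these were Nr1i3, Tomm40l and Pcp4l1, and without it Tomm40l, Nos1ap and Gm7694. The share called over all genes was 3.30% under the drug and 1.38% without it. Pcp4l1, on the reverse strand 17701 bases from Nr1i3, was also singled out after its values were seen. It had 0.526 to 1.70 CPM over the 8 KO libraries, 1.18 to 5.22 with DMSO in WT and 4.53 to 11.5 with CDDO-Me in WT. Its log2 fold change was -3.20 ± 0.45 under the drug (adjusted p 0.000505) and -1.70 ± 0.45 without it (adjusted p 0.0782). Over 27 alternatives the value under the drug ran from -3.48 to -1.84. The call was lost only among the 10 libraries low in nuclear ribosomal RNA, where 1 library stands for WT CDDO-Me. Pcp4l1 thus had the sign of Nr1i3, and Tomm40l the opposite one. Around the other members, the genes called within 1 Mb under the drug numbered 7 of 78 for Arnt, 2 of 36 for Por, 1 of 28 for Cebpa and 1 of 14 for Nr5a2, none of them the member itself.

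**Figure D2:**
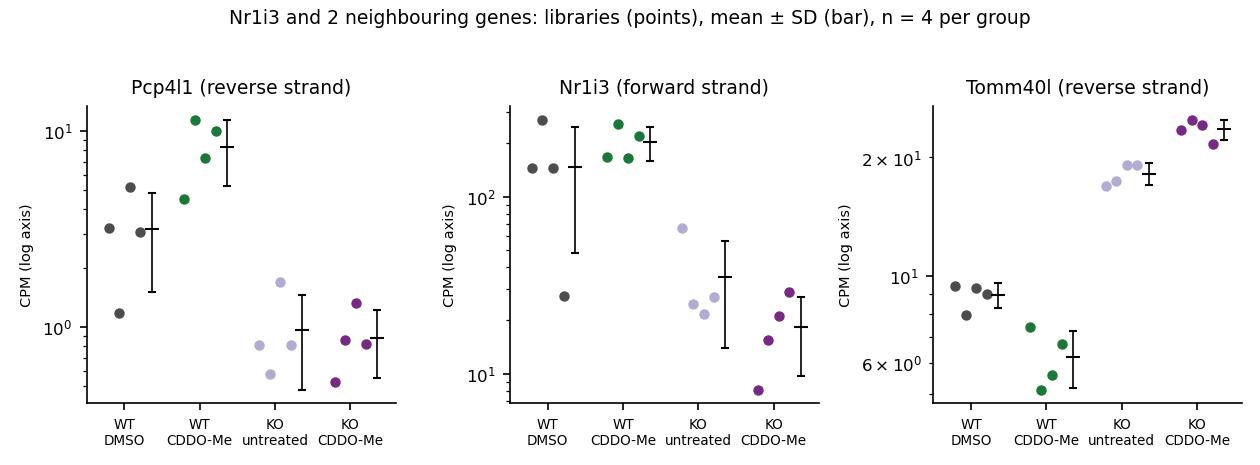
CPM (log axis) of Nr1i3, of Tomm40l on the opposite strand and of the nearby Pcp4l1 in each library, with points for libraries and bars for mean ± SD (n = 4 per group). The KO libraries are mostly low for Nr1i3 and Pcp4l1, with 1 WT DMSO library inside the KO range in each, and high for Tomm40l, with 17.0 to 24.9 CPM of Tomm40l in KO against 5.14 to 9.41 in WT.

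Nr1i2 (chr16:38248323-38294824, reverse strand), the PXR gene, showed no difference that passed the test. Nr1i2 was at 116, 102, 92.4 and 44.4 CPM in libraries 1 to 4 of WT DMSO. It was at 80.8, 74.0, 57.1 and 68.0 CPM in WT CDDO-Me. It was at 103, 88.8, 65.1 and 77.8 CPM in KO untreated and at 69.6, 90.8, 78.4 and 75.0 CPM in KO CDDO-Me. All 4 groups overlapped, and the lowest library was WT DMSO 4. The log2 fold change of Nr1i2 was -0.08 ± 0.23 between the genotypes without drug (adjusted p 0.946) and 0.16 ± 0.23 under it (adjusted p 0.804). The fitted difference for Nr1i2 was thus small beside that of its relative Nr1i3, but the difference between the 2 genes was not tested. With the drug Nr1i2 changed by -0.34 ± 0.23 in WT (adjusted p 0.46) and -0.09 ± 0.23 in KO (adjusted p 0.837).

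Rxra (chr2:27676440-27762957, forward strand), the shared dimer partner of PXR and CAR, had the lowest coefficient of variation of the members. Rxra was at 421, 466, 583 and 393 CPM in libraries 1 to 4 of WT DMSO. It was at 451, 503, 580.4 and 589.6 CPM in WT CDDO-Me. It was at 319, 383, 508 and 454 CPM in KO untreated and at 497, 473, 472 and 507 CPM in KO CDDO-Me. Every group overlapped the others, and the 4 KO CDDO-Me libraries lay closest together, with an SD of 17.6 CPM. The genotype difference of Rxra was -0.16 ± 0.18 without drug (adjusted p 0.786) and -0.12 ± 0.18 under it (adjusted p 0.805). Its drug response was 0.19 ± 0.18 in WT (adjusted p 0.585) and 0.23 ± 0.18 in KO (adjusted p 0.491).

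Ahr (chr12:35497974-35535038, reverse strand), the aryl hydrocarbon receptor, fell 1.84-fold in KO untreated against WT DMSO liver. Ahr was at 131, 107, 87.5 and 96.2 CPM in libraries 1 to 4 of WT DMSO. It was at 104, 116, 117 and 134 CPM in WT CDDO-Me. It was at 58.1, 47.3, 52.9 and 70.8 CPM in KO untreated and at 64.4, 87.9, 73.5 and 84.7 CPM in KO CDDO-Me. KO untreated lay below WT DMSO and KO CDDO-Me lay below WT CDDO-Me, in both cases without overlap, and WT DMSO 4 was unremarkable for Ahr at 96.2 CPM. The means were 105 ± 18.7 CPM in WT DMSO, 118 ± 12.5 in WT CDDO-Me, 57.3 ± 10.04 in KO untreated and 77.6 ± 10.8 in KO CDDO-Me (SD, n = 4 each). The log2 fold change without drug was -0.88 ± 0.16 with an edgeR adjusted p of 0.0127.

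That call for Ahr was lost without KO untreated 2 (log2 fold change -0.80, adjusted p 0.0526) and without the 4 intron-rich libraries (-0.60, 0.141). Among the 10 libraries low in nuclear ribosomal RNA, where WT DMSO 4 alone stands for its group, it was -0.78 (0.0953). Under the drug the difference in Ahr was -0.60 ± 0.16, 1.52-fold lower, with an adjusted p of 0.0554, and it was called under 9 of 27 alternatives. The drug response of Ahr was 0.16 ± 0.16 in WT (adjusted p 0.615) and 0.44 ± 0.16 in KO (unadjusted p 0.0157, adjusted p 0.25). The difference between them was -0.28 ± 0.23 with an adjusted p of 0.848.

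Arnt (chr3:95434388-95497240, forward strand), the partner that AHR needs to bind DNA, did not pass the test in any comparison. Arnt was at 61.9, 64.2, 53.3 and 79.3 CPM in libraries 1 to 4 of WT DMSO. It was at 58.7, 49.1, 48.1 and 52.9 CPM in WT CDDO-Me. It was at 75.3, 62.0, 48.8 and 48.0 CPM in KO untreated and at 50.7, 47.8, 47.2 and 60.1 CPM in KO CDDO-Me. All groups overlapped, and WT DMSO 4 was the highest library of the 16. The genotype difference of Arnt was -0.14 ± 0.16 without drug (adjusted p 0.798) and -0.02 ± 0.16 under it (adjusted p 0.971). Its drug response was -0.31 ± 0.16 in WT (adjusted p 0.364) and -0.19 ± 0.16 in KO (adjusted p 0.543). A processed pseudogene, Gm42672, lies within Arnt on the same strand with at most 319 counts in a library.

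Hnf4a (chr2:163506808-163572910, forward strand), the nuclear receptor central to hepatocyte gene expression, was 1.61-fold lower in KO untreated than in WT DMSO liver without passing the main test. Hnf4a was at 710, 764, 1095 and 849 CPM in libraries 1 to 4 of WT DMSO. It was at 875, 903, 1295 and 1223 CPM in WT CDDO-Me. It was at 407, 485, 703 and 525 CPM in KO untreated and at 605, 680, 825 and 922 CPM in KO CDDO-Me. The KO untreated range ended at 703 CPM, just below the WT DMSO range that began at 710 CPM, and the groups given the drug overlapped. The log2 fold change was -0.69 ± 0.22 without drug (unadjusted p 0.00696, adjusted p 0.149) and -0.50 ± 0.22 under it (adjusted p 0.255). Fitted with the replicate number as a block, the difference without drug was -0.70 with an adjusted p of 0.0227, which made Hnf4a a call. DESeq2 gave -0.70 with an adjusted p of 0.0287. Hnf4a was called in 3 of 28 alternatives and in 0 of the 16 fits that left out 1 library, with adjusted p values of 0.118 to 0.295. The drug response of Hnf4a was 0.33 ± 0.22 in WT (adjusted p 0.456) and 0.52 ± 0.22 in KO (unadjusted p 0.0339, adjusted p 0.289). Hnf4aos, an antisense RNA that overlaps Hnf4a by 34913 bases, averaged 9.77 CPM in WT DMSO, 6.85 in WT CDDO-Me, 4.39 in KO untreated and 3.46 in KO CDDO-Me. It too was not called, at -1.15 without drug (adjusted p 0.236) and -0.98 under it (adjusted p 0.275).

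Cebpa (chr7:35119293-35121928, forward strand), a leucine zipper factor of mature hepatocytes, varied widely inside each group. Cebpa was at 97.4, 75.9, 181 and 166 CPM in libraries 1 to 4 of WT DMSO. It was at 121, 175, 225 and 203 CPM in WT CDDO-Me. It was at 86.2, 149, 246 and 165 CPM in KO untreated and at 233, 164, 162 and 153 CPM in KO CDDO-Me. All groups overlapped, and the lowest 3 libraries, WT DMSO 1 and 2 and KO untreated 1, were among the 4 intron-rich ones. Its genotype difference was 0.32 ± 0.31 without drug (adjusted p 0.754) and -0.02 ± 0.31 under it (adjusted p 0.984). Its drug response was 0.48 ± 0.31 in WT (adjusted p 0.448) and 0.14 ± 0.31 in KO (adjusted p 0.821).

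Nr5a2 (chr1:136842571-136960448, reverse strand), which encodes LRH-1, differed mainly in 1 library. Nr5a2 was at 63.1, 74.0, 87.9 and 177 CPM in libraries 1 to 4 of WT DMSO. It was at 69.5, 78.8, 97.5 and 86.5 CPM in WT CDDO-Me. It was at 80.4, 70.5, 83.5 and 78.2 CPM in KO untreated and at 91.0, 79.6, 90.2 and 81.7 CPM in KO CDDO-Me. Apart from WT DMSO 4, at 177 CPM, all libraries lay between 63.1 and 97.5 CPM. The genotype difference of Nr5a2 was -0.36 ± 0.24 without drug (adjusted p 0.57), and 0.06 without WT DMSO 4. Among the 10 libraries low in nuclear ribosomal RNA, where the WT DMSO side is that library alone, it was -1.21 and called (adjusted p 0.00354). It was 0.04 ± 0.24 under the drug (adjusted p 0.96). Its drug response was -0.28 ± 0.24 in WT (adjusted p 0.557) and 0.13 ± 0.24 in KO (adjusted p 0.78).

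Por (chr5:135670033-135735326, forward strand), the electron donor of the microsomal P450 enzymes, had lower means in KO liver but a wide spread. Por was at 333, 316, 461 and 230.2 CPM in libraries 1 to 4 of WT DMSO. It was at 395, 349, 414 and 614 CPM in WT CDDO-Me. It was at 75.1, 159, 216 and 359 CPM in KO untreated and at 247, 344, 236 and 303 CPM in KO CDDO-Me. The KO CDDO-Me range ended at 344 CPM, below the WT CDDO-Me range that began at 349 CPM, while the groups without drug overlapped. The log2 fold change was -0.73 ± 0.35 without drug (adjusted p 0.368) and -0.65 ± 0.35 under it (adjusted p 0.377). Without the 4 intron-rich libraries the first of these was -0.29 (adjusted p 0.716). The drug response of Por was 0.40 ± 0.35 in WT (adjusted p 0.557) and 0.48 ± 0.35 in KO (adjusted p 0.463).

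Counting members whose 4 libraries lay wholly on one side of the other group gave 2 lower in KO untreated vs WT DMSO (Ahr and Hnf4a), where 5.91% of all genes had ranges apart. It gave 3 lower in KO CDDO-Me vs WT CDDO-Me (Nr1i3, Ahr and Por), where 19.1% of all genes had ranges apart. In the drug comparisons it gave 0 of 9 in WT, against 7.20% of all genes, and 0 of 9 in KO, against 10.5%. Ahr was therefore the one member with ranges apart in both genotype comparisons, and the 2 comparisons use different libraries.

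**Figure D3:**
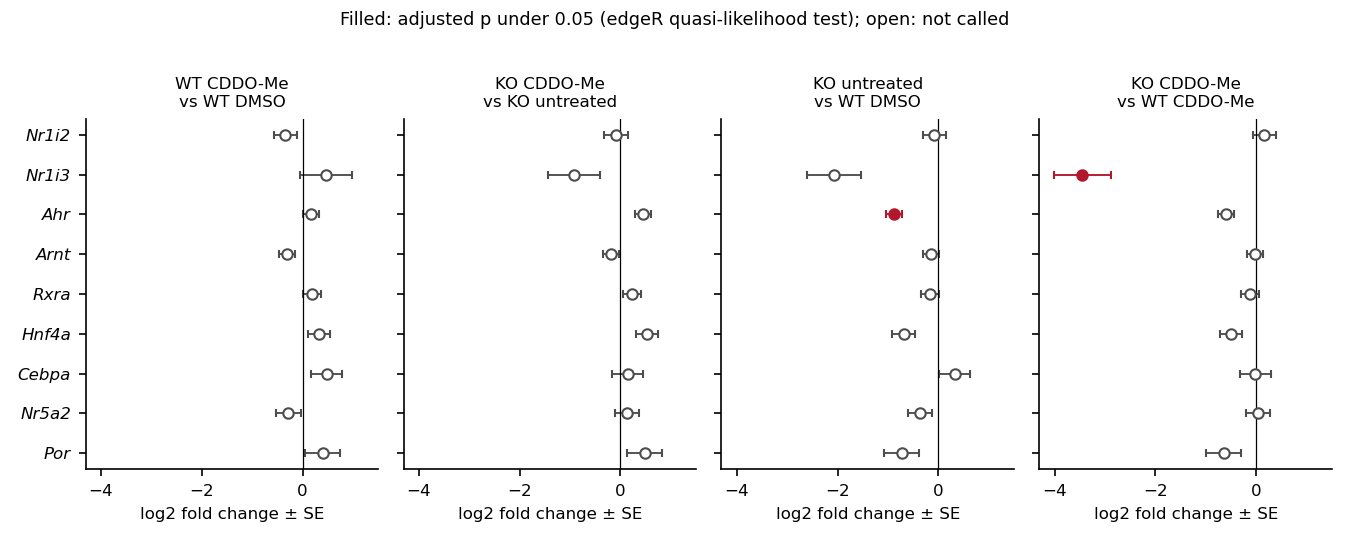
Log2 fold change with its standard error for the 9 genes in the 4 pairwise comparisons, with filled points for an edgeR adjusted p under 0.05 and open points for the rest. Only Ahr in KO untreated vs WT DMSO (-0.88) and Nr1i3 in KO CDDO-Me vs WT CDDO-Me (-3.45) are filled.

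The partners of the receptors did not pass the test. The list held the other RXR genes, the second ARNT gene, the AHR repressors and the HSP90 complex that holds AHR in the cytosol, and 8 of its 10 genes were tested. Of these 8, 0 were called by edgeR in any of the 5 comparisons, with 0 to 2 per comparison at an unadjusted p under 0.05. DESeq2 called 1 in KO untreated vs WT DMSO and limma called 0 in any. Tiparp, a feedback inhibitor of AHR, had the largest value without drug at -2.42 in KO against WT (adjusted p 0.0974), with means of 50.6 ± 64.5 CPM in WT DMSO and 9.51 ± 3.86 in KO untreated (SD, n = 4). It was at 26.3, 17.1, 12.1 and 146.8 CPM in WT DMSO, and without WT DMSO 4 the Tiparp difference was -0.96 (adjusted p 0.38).

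The coregulators that nuclear receptors recruit gave 3 calls among 14 genes, all under the drug between genotypes, 1 higher and 2 lower. In that comparison 3.30% of all genes were called. Ppargc1a, the coactivator of gluconeogenic and mitochondrial genes, rose by 1.54 ± 0.38 in KO (adjusted p 0.033), from 9.51 ± 3.84 CPM in WT CDDO-Me to 27.4 ± 4.94 in KO CDDO-Me (SD, n = 4). Ncoa6, a coactivator, fell by 0.74 (adjusted p 0.00426), and Ncor1, a corepressor, fell by 0.48 (adjusted p 0.0394), both as log2 fold changes. Leaving out 1 of the 16 libraries at a time kept Ncoa6 called in 16 of 16 fits. Over 27 alternatives it ran from -0.82 to -0.46. The call of Ncoa6 was lost with limma and among the 10 libraries low in nuclear ribosomal RNA, where 1 library stands for WT CDDO-Me. With 1 library left out, the other 2 calls were less steady. Ppargc1a was called in 10 of 16, with an adjusted p of up to 0.108 (without WT CDDO-Me 3), and Ncor1 in 6 of 16, with up to 0.133 (without KO CDDO-Me 2).

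Target genes of AHR called with the drug in WT liver were higher, and those called between genotypes were lower in KO. The list holds genes that NRF2 itself is known to switch on, Nqo1 and Ugt1a6b among them. It also holds Nfe2l2, the gene targeted in the KO, which enters the counts and medians below. Of 11 genes 8 were tested. In WT liver the drug raised 2 of 8, in KO untreated vs WT DMSO 2 of 8 fell, and in KO CDDO-Me vs WT CDDO-Me 5 of 8 fell. The shares of all genes called were 0.728%, 1.38% and 3.30%, in the same order. The medians of the log2 fold changes over the 8 genes were 0.64, -0.76 and -1.76 in these comparisons, against -0.02, 0.00 and -0.01 over all genes. The drug in KO liver called 0 of 8 by edgeR (5 at an unadjusted p under 0.05, 1 by DESeq2 and 1 by limma), with a median of -0.36.

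Nqo1, a quinone reductase, was at 3.21, 3.75, 4.22 and 4.04 CPM in WT DMSO and at 45.9, 40.2, 36.4 and 30.8 CPM in WT CDDO-Me. It was at 0.508, 0.434, 0.897 and 1.19 CPM in KO untreated and at 1.98, 0.766, 1.56 and 0.825 CPM in KO CDDO-Me. All 8 KO libraries lay below all 8 WT libraries. Nqo1 rose by 3.33 ± 0.30 with the drug in WT (adjusted p 2.6e-05), and its KO against WT difference was -2.31 ± 0.32 without drug (adjusted p 0.00206) and -4.89 ± 0.32 under it (adjusted p 1.06e-07). The interaction for Nqo1, 2.58 ± 0.44 with an adjusted p of 0.0183, was called in 12 of 16 fits that left out 1 library, the highest adjusted p being 0.0664 (without KO untreated 3).

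Cyp1a2, the constitutive CYP1A enzyme of liver and a classic AHR target, was lower in KO liver under the drug. It was at 265, 278, 450.3 and 613 CPM in WT DMSO and at 635, 791, 1124 and 672 CPM in WT CDDO-Me. It was at 415, 408, 575 and 427 CPM in KO untreated and at 99.3, 106, 247 and 289 CPM in KO CDDO-Me. The WT and KO groups given the drug did not overlap, and those without it did. Under the drug the Cyp1a2 difference was -2.12 ± 0.36 with an adjusted p of 0.00303, called in 16 of 16 fits that left out 1 library. Over 27 alternatives it ran from -2.42 to -1.77, and its call was lost only among the 10 libraries low in nuclear ribosomal RNA. There 1 library stands for WT CDDO-Me. With the drug the fitted Cyp1a2 values had opposite signs, 1.00 ± 0.35 in WT (adjusted p 0.217) and -1.30 ± 0.36 in KO (adjusted p 0.172), and their difference of 2.30 ± 0.50 missed the threshold (adjusted p 0.0866). Cyp1a1, the inducible member of the pair, was far lower in level at 0.459 to 3.95 CPM, and its difference under the drug was -1.81 ± 0.45 (adjusted p 0.0363). That call held in 10 of 16 fits that left out 1 library, with up to 0.123 without KO CDDO-Me 1.

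Ugt1a6b, a glucuronosyltransferase, averaged 49.9 ± 6.55 CPM in WT DMSO, 80.6 ± 4.22 in WT CDDO-Me, 27.4 ± 4.51 in KO untreated and 22.6 ± 2.68 in KO CDDO-Me (SD, n = 4). Its differences were 0.69 with the drug in WT (adjusted p 0.037), -0.87 between genotypes without drug (adjusted p 0.00693) and -1.84 under it (adjusted p 7.55e-07). The first of these was called in 8 of 16 fits that left out 1 library, with up to 0.116 without WT CDDO-Me 3. Ugt1a genes share their 3′ exons, and how reads there were counted, if at all, is not known. The fifth gene called under the drug, Nfe2l2 at -1.08 (adjusted p 0.0283, 8 of 16 such fits, up to 0.102 without KO CDDO-Me 2), is the gene targeted in the KO.

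Target genes of PXR and CAR mostly had negative fold changes in KO against WT liver, but few passed the test. Of 22 genes 20 were tested, without Cyp2b9 and Cyp2b13. The fold changes were negative for 16 of 20 in KO untreated vs WT DMSO (median -0.55) and for 16 of 20 in KO CDDO-Me vs WT CDDO-Me (median -0.56), against medians of 0.00 and -0.01 over all genes. Of the 20, 2 were called lower without drug and 3 lower under it, with 8 and 7 at an unadjusted p under 0.05. Among all genes 1.38% and 3.30% were called in these comparisons. In WT the drug raised 1 of 20, where 0.728% of all genes were called. In KO it called 0 of 20 by edgeR (5 at an unadjusted p under 0.05, 1 by DESeq2, 0 by limma).

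Abcc3 (MRP3), the pump that exports conjugates from hepatocytes to blood, had the largest called differences of the PXR and CAR target list. It was at 267, 213, 372 and 262 CPM in WT DMSO and at 636, 739, 701 and 757 CPM in WT CDDO-Me. It was at 30.6, 30.2, 39.8 and 55.9 CPM in KO untreated and at 33.1, 35.0, 40.7 and 52.9 CPM in KO CDDO-Me. The 2 WT groups were apart from each other and from all KO libraries, whereas the 2 KO groups overlapped. The log2 fold change was 1.35 ± 0.22 with the drug in WT (adjusted p 0.00621), -2.83 ± 0.24 between genotypes without drug (adjusted p 7.38e-06) and -4.13 ± 0.25 under it (adjusted p 4.43e-08), each called in 16 of 16 fits that left out 1 library. Abcc3 is also a known NRF2 target.

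The remaining calls of that list were smaller. Abcc2 (MRP2), the canalicular pump, was at -1.14 under the drug between genotypes (adjusted p 0.0162), and Aldh1a1, a retinaldehyde dehydrogenase, at -1.75 (adjusted p 0.0111). Abcc2 was called in 13 of 16 fits that left out 1 library, with up to 0.0658, and Aldh1a1 in 15 of 16, with up to 0.0502, in both cases without KO CDDO-Me 2. Cyp3a13 was at -1.12 without drug (adjusted p 0.0411), called in 5 of 16 fits with up to 0.123 (without KO untreated 2), and not called with the replicate block (adjusted p 0.0655). With that block, Aldh1a1 (-0.93, adjusted p 0.0489), Cyp2c29 (-0.95, 0.0124) and Gadd45b (-2.58, 0.0224) were called lower without drug, against adjusted p values of 0.211, 0.224 and 0.107 without it. Gadd45b was at 5.53, 7.01, 4.28 and 30.6 CPM in WT DMSO, and without WT DMSO 4, in the fit with no block, its difference was -1.70 (adjusted p 0.316).

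The best known target of each receptor did not follow one pattern. Cyp2b10, the classic CAR target, averaged 4.75 ± 3.28 CPM in WT DMSO, 1.23 ± 0.819 in WT CDDO-Me, 0.896 ± 1.51 in KO untreated and 0.774 ± 0.624 in KO CDDO-Me (SD, n = 4). Its genotype difference was -2.36 without drug (adjusted p 0.311) and -0.77 under it (adjusted p 0.791). KO untreated 4 held most of the Cyp2b10 in its group, at 3.15 CPM against 0 to 0.241 in the other 3, and without it the first difference was -4.97 (adjusted p 0.0631). Cyp3a11, the classic PXR target, averaged 3186 ± 1610 CPM in WT DMSO, 1776 ± 699 in WT CDDO-Me, 3211 ± 1417 in KO untreated and 1679 ± 787 in KO CDDO-Me. Its genotype difference was 0.01 without drug (adjusted p 0.996) and -0.08 under it (adjusted p 0.961), and none of its contrasts passed the test. Both genes were chosen for naming after their values were seen, and members of the Cyp2b and Cyp3a families are alike enough in sequence that reads could be split between them.

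**Figure D4:**
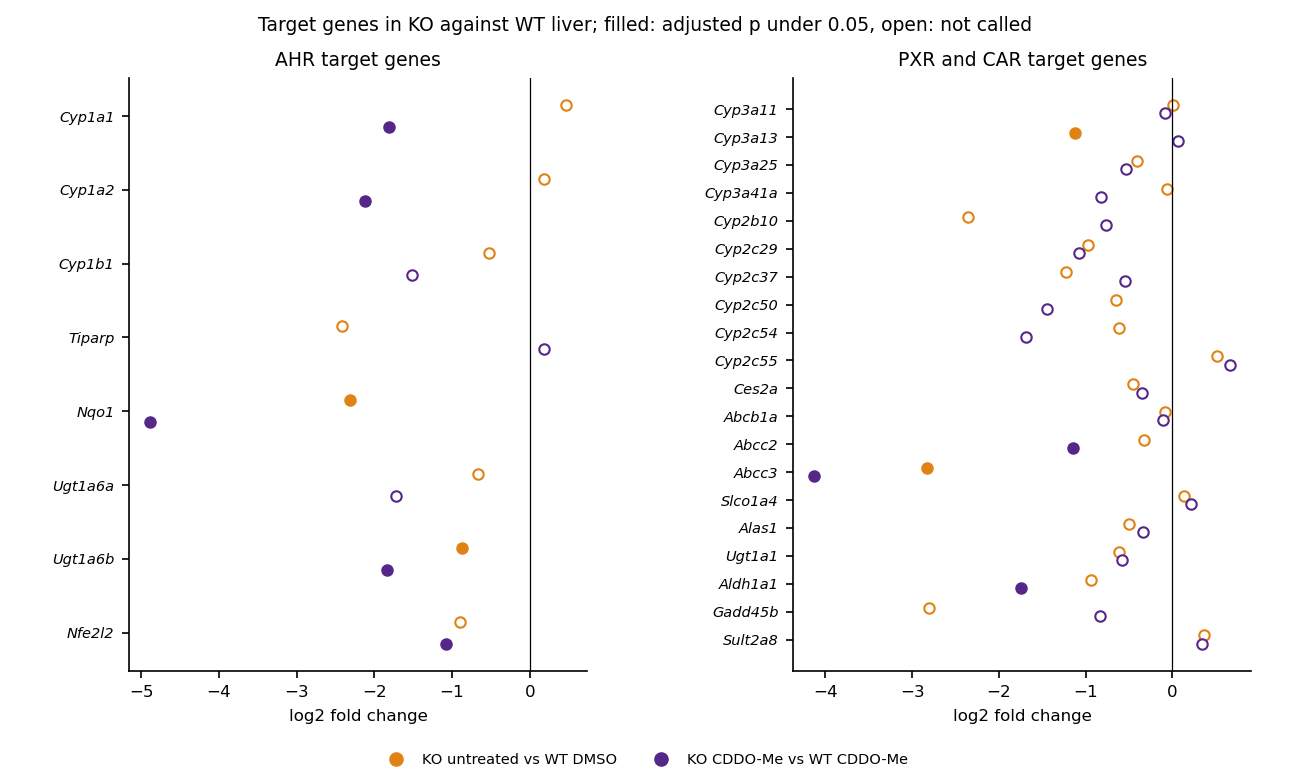
Log2 fold change of the tested target genes of AHR and of PXR and CAR in KO untreated vs WT DMSO (orange) and KO CDDO-Me vs WT CDDO-Me (purple), filled where the edgeR adjusted p was under 0.05. Nqo1 (-4.89) and Abcc3 (-4.13) lie farthest below 0 under the drug, and 16 of 20 PXR and CAR targets are below 0 in each comparison.

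Target genes of HNF4A had a median near that of all genes in both genotype comparisons. All 19 were tested, the median log2 fold change was -0.01 without drug and -0.03 under it, and 9 of 19 were positive in each. Without drug 0 of 19 were called by edgeR, 0 had an unadjusted p under 0.05, and DESeq2 and limma each called 0. Under the drug 3 of 19 were called, among them Tat and Cyp8b1, where 3.30% of all genes were called. Tat, tyrosine aminotransferase, was higher in KO by 1.2 ± 0.22 (adjusted p 0.0043). It was at 1217 to 1498 CPM in WT CDDO-Me, below every library of the other groups. Its range of 2775 to 3735 CPM in KO CDDO-Me overlapped those of WT DMSO (2067 to 3244) and KO untreated (1907 to 2990). Cyp8b1, the sterol hydroxylase that directs cholic acid synthesis, was at -1.27 ± 0.24 (adjusted p 0.00556). Both were called in 16 of 16 fits that left out 1 library. Over 27 alternatives Tat ran from 1.10 to 1.36 and Cyp8b1 from -1.42 to -0.78. Each lost its call only among the 10 libraries low in nuclear ribosomal RNA, where 1 library stands for WT CDDO-Me.

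Target genes of CEBPA and NR5A2 gave scattered calls. Over all genes, 0.728% were called with the drug in WT, 1.38% between genotypes without drug and 3.30% under it. With the drug in WT, 1 of 14 CEBPA targets was called, Sds (serine dehydratase) at -1.61 (adjusted p 0.0465), and 1 of 13 tested NR5A2 targets, Got1 (aspartate aminotransferase) at -1.30 (adjusted p 0.041). Under the drug both were higher in KO than in WT, Sds at 1.32 (adjusted p 0.0478) and Got1 at 1.56 ± 0.28 (adjusted p 0.00389), as were Tat and Gls2 (glutaminase of liver, 1.26, adjusted p 0.0278). Got1 averaged 342 ± 98.0 CPM in WT DMSO, 139 ± 22.8 in WT CDDO-Me, 314 ± 122 in KO untreated and 411 ± 106 in KO CDDO-Me (SD, n = 4). Leaving out 1 library, Got1 under the drug was called in 16 of 16 fits, Gls2 in 10 of 16 (up to 0.101, without KO CDDO-Me 2) and Sds in 5 of 16 (up to 0.156, without KO CDDO-Me 2). In WT, Sds was called in 6 of 16 (up to 0.145, without WT CDDO-Me 3) and Got1 in 7 of 16 (up to 0.178, without WT CDDO-Me 2). Over 27 alternatives Got1 in KO against WT under the drug ran from 1.45 to 1.69. That call was lost only among the 10 libraries low in nuclear ribosomal RNA, where 1 library stands for WT CDDO-Me. Without drug, Cebpd, a relative of CEBPA, was at -1.95 (adjusted p 0.0421) and Hamp, hepcidin, at -1.95 (adjusted p 0.0466). Each of these 2 was called in 4 of 16 fits, with up to 0.129 for Cebpd (without KO untreated 2) and 0.132 for Hamp (without KO untreated 4). Without WT DMSO 4, Cebpd was at -1.28 (adjusted p 0.103). With the replicate block neither was called, at 0.0531 for Cebpd and 0.0544 for Hamp.

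Other transcription factors of the hepatocyte mostly had negative fold changes in KO liver under the drug. All 22 were tested, and 18 were negative with a median of -0.30 against -0.01 over all genes. Where 3.30% of all genes were called, 4 of the 22 were, all lower, among them Tbx3 (-2.01, adjusted p 0.0213), Atf5 (-1.06, 0.022) and Prox1 (-1.19, 0.0467). These 3 calls were lost in part when 1 library was left out, with 11 of 16 fits for Tbx3 and 10 of 16 for Atf5, both up to 0.0784 without KO CDDO-Me 3, and 5 of 16 for Prox1, up to 0.165 without WT CDDO-Me 4. Without drug the only call among the 22 was Cebpd. With the drug in WT and in KO, 0 of 22 were called by edgeR, with 3 at an unadjusted p under 0.05 in each, 1 and 0 by DESeq2 and 0 by limma.

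Among 27 tested other nuclear receptors of liver, Pparg and Esr1 differed between genotypes in opposite directions under the drug. Pparg, the PPAR gamma receptor, was lower in KO at -1.80 ± 0.28 (adjusted p 0.0015, called in 16 of 16 fits that left out 1 library), and Esr1, estrogen receptor alpha, was higher at 1.11 ± 0.24 (adjusted p 0.0184, 12 of 16, up to 0.0752 without KO CDDO-Me 2). Over 27 alternatives Pparg ran from -1.90 to -1.07. Its call was lost only among the 10 libraries low in nuclear ribosomal RNA, where 1 library stands for WT CDDO-Me. Without drug Pparg was at -1.17 (adjusted p 0.0541), and with the replicate block at -1.21 (adjusted p 0.0236).

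The enzymes that POR supplies with electrons, and other electron donors, were 22 tested genes of 23. Under the drug 16 of 22 were negative between genotypes with a median of -0.38 against -0.01 over all genes. Of the 22, 2 were called, Cyp1a2 and Cyp8b1 (above), where 3.30% of all genes were called. Without drug 8 of 22 were negative with a median of 0.08, and 0 were called by edgeR (3 at an unadjusted p under 0.05, 0 by DESeq2 and 0 by limma). Hmox1, the heme oxygenase that uses POR and a known NRF2 target, was at -2.83 (adjusted p 0.0502) there, and at -2.17 (adjusted p 0.021) with the replicate block. Hmox1 was at 20.5, 34.1, 47.2 and 294.4 CPM in WT DMSO and 9.80 to 17.9 in KO untreated, and without WT DMSO 4 the difference was -1.28 (adjusted p 0.137).

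Across the 16 libraries, the genes closest to each member in log2 CPM were found among 9836 genes with a mean of at least 5 CPM. These Pearson correlations describe libraries that share their depth, groups and quality, and say nothing of shared control. For Nr1i3 they were Xylb (r = 0.925) and Aox1 (0.913), and for Ahr Pim3 (0.885) and Ftl1 (0.870). For Nr1i2 they were Slx1b (0.927) and Lmbr1 (0.915), for Arnt D10Wsu102e (0.941) and Gm43984 (0.936), and for Rxra Fam76a (0.914) and Nfia (0.899). For Hnf4a they were Gsk3a (0.927) and Bnip3 (0.926), for Cebpa Slc46a1 (0.931) and Gpx1 (0.922), for Nr5a2 Smad5 (0.952) and Cep350 (0.945), and for Por Vegfb (0.902) and Rn7sk (0.894). Of deviations from the group means, the correlation of Nr1i3 was 0.824 with Xylb and 0.775 with Aox1, and that of Ahr was 0.518 with Pim3 and 0.542 with Ftl1.

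Xylb, the gene closest to Nr1i3, was called in neither genotype comparison. It was at -0.22 without drug (edgeR adjusted p 0.583) and -0.55 under it (adjusted p 0.0576). Aox1, an aldehyde oxidase of liver, was lower in KO in both genotype comparisons. It averaged 214 ± 71.4 CPM in WT DMSO, 498 ± 51.5 in WT CDDO-Me, 43.4 ± 17.1 in KO untreated and 40.4 ± 2.74 in KO CDDO-Me (SD, n = 4). Its differences were -2.30 ± 0.28 without drug (adjusted p 0.000488) and -3.62 ± 0.29 under it (adjusted p 7.55e-07). Pim3, a serine/threonine kinase, was the gene closest to Ahr and was lower in KO untreated at -1.30 ± 0.25 (adjusted p 0.0176), called in 15 of 16 fits that left out 1 library, with up to 0.0698 without KO untreated 2. Among the members themselves the closest pairs were Rxra with Por (r = 0.82), Rxra with Hnf4a (0.80) and Hnf4a with Por (0.78), and Nr1i2 with Nr5a2 ran opposite (-0.81).

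**Figure D5:**
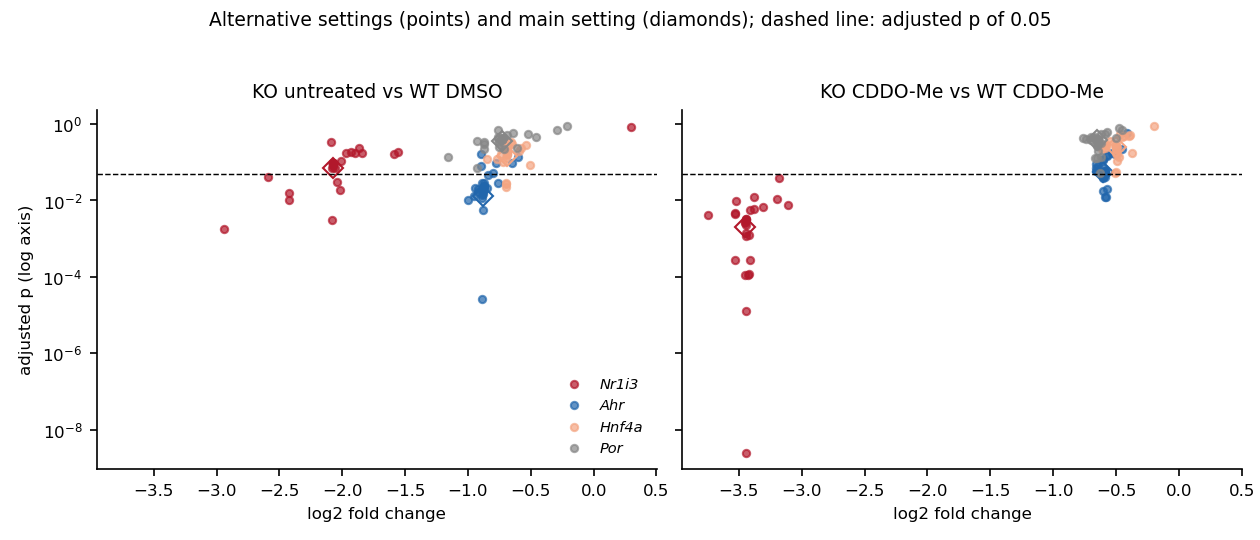
Log2 fold change (x axis) and edgeR, DESeq2 or limma adjusted p (log y axis) of the members that came near the threshold, in the 2 genotype comparisons, with small points for alternative settings, diamonds for the reported value and a dashed line at 0.05. Nr1i3 under the drug lies below the line in all 27 alternatives, and Ahr without drug in 22 of 28.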

How the data were processed

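The authors deposited a table of unnormalised read counts for every gene and a table of FPKM, which equalled count divided by gene length and library total to within a relative deviation of 8.7e-07. Per the labels' protocols, RNA was depleted of ribosomal RNA and made into directional libraries. The submitters' processing notes name, without roles, the tools TopHat2 (2.1.0), HTSeq (0.6.1p1), cutadapt (1.2.1), CASAVA (1.8.2) and DESeq2 and the genome GRCm38.p5. The annotation used and whether counting was stranded were not given in these sources. Positions came from GENCODE M21 (GRCm38), which matched 33629 gene IDs and left 101 unmatched, and promoter windows from RefSeq.

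Counts were tested with edgeR 4.0.16 in R 4.3.3 (quasi-likelihood test, TMM scaling, filter on low counts by group), with 16 libraries in 1 fit, 12 residual degrees of freedom and Benjamini-Hochberg adjustment over 16206 genes. The unit of the FPKM alternative was log2(FPKM + 1), with a pseudocount of 1, tested with limma 3.58.1, and DESeq2 1.42.0 was also run. CPM are counts scaled to library size with TMM factors, given as mean ± SD, and fold changes are log2 with standard errors. Depth limits precision through the totals given above, and p-values cover the spread between these samples, since the labels do not tie each library to an animal. The scripts were tested on simulated data.

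The members and gene lists were chosen with earlier results of these data known. Every member was to be given in every comparison. From each list, called genes were to be named, up to 6 per list and comparison by smallest p, and where none was called up to 2 with the largest fold change. The 2 genes with the highest Pearson r to each member were taken among genes of at least 5 CPM (log2 CPM with a prior count of 2). Interferon-stimulated and acute phase genes were added after the data were seen.

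Replicate numbers come from the sample titles alone. In WT DMSO and KO untreated, same-numbered libraries deviated together from their group means (r = 0.47, 0.48, 0.4 and 0.37), so the blocked value is given where it changes a call in that comparison. These r values cannot show pairing, because libraries with different numbers were not compared and libraries 1 and 2 of both groups were the intron-rich ones. In the other comparisons at least 1 pair had r of 0.1 or less. Alternatives were other scaling, no filter, the replicate block, the intronic share as covariate, the comparison's own groups alone, DESeq2, limma, leaving out libraries, and, added later, only the 10 libraries low in nuclear ribosomal RNA (6 residual degrees of freedom). Some results of the lists are not reported here.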

Additional observations from a re-analysis of the deposited data

Results flagged for a closer look

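In 2 of the 36 sets of 4 libraries (9 genes in 4 groups), 1 library lay far from the other 3, its gap to the nearest being more than 0.829 of the whole range, which chance gives in about 1 in 20 sets. For Nr1i3 in KO untreated it was library 1, at 66.4 CPM, with a gap of 0.880 of the range. This library also had the highest share of intronic counts, 0.967%, and an Nfe2l2 level inside the WT DMSO range. For Cebpa in KO CDDO-Me it was library 1, at 233 CPM, with a gap of 0.873 of the range. The part of library quality in either value was not tested.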

How the results depend on the processing

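For the 9 genes in 5 comparisons, 1188 alternative values were computed: 1098 kept their direction and side of the threshold, 20 came past it, 6 dropped behind it and 64 changed sign, all of these for values that were not called. Called members in KO untreated vs WT DMSO numbered 1 and became 2 with no filter, with the replicate block and without WT DMSO 4 together with WT CDDO-Me 1 or with KO untreated 1. They became 3 with the intronic covariate and with DESeq2, and 0 without the 4 intron-rich libraries, with the comparison's groups alone, with the replicate block in those groups alone, and with limma. Leaving out 1 library gave 0 to 2. In KO CDDO-Me vs WT CDDO-Me the count was 1 and became 2 with the replicate block, the intronic covariate, the comparison's groups alone and DESeq2, and without the 4 intron-rich libraries or without WT DMSO 4 and KO untreated 1, and leaving out 1 library gave 1 to 2. The counts of the other 3 comparisons stayed at 0 in every alternative. With the replicate block in KO untreated vs WT DMSO, Nr1i3 was at -2.01 (adjusted p 0.108), Ahr at -0.89 (0.0137) and Hnf4a at -0.70 (0.0227), and the block in those groups alone gave Ahr -0.90 (0.0817) and Hnf4a -0.72 (0.0993). In that comparison Nr1i3 was called in 7 of 28 alternatives, and Ahr lost its call in 6 of 28, with the comparison's groups alone at -0.90 (0.16) and limma at -0.65 (0.0957) besides those named above and the fit of the 10 libraries low in nuclear ribosomal RNA at -0.78 (0.0953). That fit, with 1 library in each WT group, also called 1 member in that comparison, Nr5a2 (-1.21, adjusted p 0.00354) in place of Ahr, and Nr1i3 under the drug (-3.18, 0.0396). The cause was not tested.

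Signs that changed by setting were as follows. With the drug in WT, Nr1i2 was at 0.01 without the 4 intron-rich libraries, Por at -0.01 with the intronic covariate, and Nr5a2 at 0.23 without WT DMSO 4 and WT CDDO-Me 1, or 0.14 without WT DMSO 4 and KO untreated 1. With the drug in KO, Nr1i2 was at 0.18, Cebpa at -0.28 and Nr5a2 at -0.10 with the intronic covariate. Nr1i2 was at 0.15, Arnt at 0.11, Cebpa at -0.19 and Por at -0.003 without the 4 intron-rich libraries. Nr1i2 was at 0.02 and Cebpa at -0.07 without WT DMSO 4 and KO untreated 1, and Nr5a2 at -0.07 with limma. In KO untreated vs WT DMSO, Nr1i2 was at 0.04 without the 4 intron-rich libraries, Nr1i2 at 0.15, Arnt at 0.03 and Rxra at 0.01 with limma, and Nr5a2 at 0.06 and 0.04 without WT DMSO 4 and WT CDDO-Me 1 or KO untreated 1. With only the libraries low in nuclear ribosomal RNA, KO untreated vs WT DMSO had Nr1i2 at 0.88, Nr1i3 at 0.30, Rxra at 0.05 and Cebpa at -0.06, and KO CDDO-Me vs WT CDDO-Me had Nr1i2 at -0.04, Rxra at 0.11 and Cebpa at 0.57. In KO CDDO-Me vs WT CDDO-Me, Arnt was at 0.003 without the 4 intron-rich libraries and at 0.04 without WT DMSO 4 and WT CDDO-Me 1, where Nr5a2 was at -0.03. Cebpa was at 0.01 with no filter and 0.06 with the replicate block, and limma gave Arnt 0.09, Rxra 0.01 and Cebpa 0.12. In the interaction, Rxra was at 0.06 and Por at 0.33 without the 4 intron-rich libraries, Nr5a2 at 0.09 without WT CDDO-Me 1 and WT DMSO 4, and Por at 0.04 without WT DMSO 4 and KO untreated 1.

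Leaving out 1 library changed a sign within these ranges. With the drug, Nr5a2 in WT ran from -0.45 to 0.15, and in KO Nr1i2 ran from -0.19 to 0.01 and Cebpa from -0.08 to 0.42. In KO untreated vs WT DMSO, Nr1i2 ran from -0.31 to 0.08 and Nr5a2 from -0.53 to 0.06. In KO CDDO-Me vs WT CDDO-Me, Arnt ran from -0.10 to 0.04, Cebpa from -0.18 to 0.10 and Nr5a2 from -0.03 to 0.14. In the interaction, Rxra ran from -0.15 to 0.09, Nr5a2 from -0.58 to 0.02 and Por from -0.51 to 0.19.

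The counts over all genes moved by more than 1.5 times. From 118, 21, 223, 534 and 21 called (WT drug, KO drug, KO untreated vs WT DMSO, KO CDDO-Me vs WT CDDO-Me, interaction), the alternatives ran from 54 to 466, 4 to 299, 20 to 1461, 88 to 2168 and 18 to 201. The lowest counts were without WT CDDO-Me 2 (54), without KO untreated 2 (4), with the comparison's groups alone (20), with only the libraries low in nuclear ribosomal RNA (88) and without KO CDDO-Me 2 (18). Leaving out 1 library gave no fewer than 104 in KO untreated vs WT DMSO (without KO untreated 2) and 265 in KO CDDO-Me vs WT CDDO-Me (without KO CDDO-Me 2). Nr1i3 rested on 201 to 17602 counts per library, so counting error is small beside the spread between libraries.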

Other observations

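Besides Tomm40l, the genes called within 1 Mb of Nr1i3 in KO untreated vs WT DMSO were Nos1ap at -2.50 (adjusted p 0.0385, edgeR) and Gm7694 at -2.26 (adjusted p 0.0421), as log2 fold changes. Across the 16 libraries, Nr1i2 and Nr5a2 ran opposite within the groups as well, with a Pearson correlation of -0.92 between deviations from the group means, and Nr1i2 and Nr1i3, at 0.23 over all libraries, had 0.79 between deviations. These correlations are descriptions over libraries that share their quality differences.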
